A study of Mus musculus with 31 samples.

Results

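Within the immune cells of mouse mammary tumours, 10 genes of prostaglandin and leukotriene metabolism were followed: Ptgs1, Ptgs2, Ptges, Hpgd, Ptger2, Ptger4, Alox5, Alox5ap, Alox15 and Ltc4s. They were taken by symbol from the 38406 genes counted in each of 31 bulk RNA-seq libraries, and all 10 were found. Each library held CD45.2+ cells sorted by flow cytometry from AT3-OVA tumours, a triple negative mammary line carrying ovalbumin, grown in the mammary fat pad of wild-type female C57BL/6 mice. Tumours had received local electron beam radiotherapy in fractions (3x4Gy) or as a single dose (1x20Gy), and mock tumours came from mice that were anaesthetised in the same way without radiation (3x0Gy and 1x0Gy). At day 5 after the end of treatment there were 6 libraries of 3x4Gy, 4 of 3x0Gy, 6 of 1x20Gy and 4 of 1x0Gy. At day 13 there were 7 libraries of 1x20Gy and 4 of 1x0Gy. The model is 1 tumour line in 1 mouse strain. The age of the mice and whether any animals were pooled are not given in the sources used here. Nothing in the labels states that the libraries of a group came from separate mice, so the p-values measure the spread between these libraries.

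Prostaglandins and leukotrienes are lipid signals made from arachidonic acid, which phospholipases release from membranes. The cyclooxygenases Ptgs1, present in many resting cells, and Ptgs2, induced by cytokines and growth signals, convert it to the shared prostaglandin precursor. Ptges then makes prostaglandin E2, Hpgd inactivates it, and the receptors Ptger2 and Ptger4 pass its signal on through cyclic AMP. In the other branch Alox5 makes leukotrienes with the help of the membrane protein Alox5ap, Ltc4s adds glutathione to give the cysteinyl leukotrienes, and Alox15 is a separate lipoxygenase. In tumours, macrophages, monocytes, neutrophils and mast cells are known sources of these lipids, and prostaglandin E2 is known for restraining T cells and natural killer cells.

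The promoters of both cyclooxygenases are shown because these genes moved in opposite directions after irradiation. RefSeq promoter windows (build GRCm38.p6, 250 bases before to 50 after the start) were found for 8 of the 10 genes, and those of Ptgs1 and Ptgs2 both lie on the plus strand. Capitals mark matches to any of 7 motifs searched on both strands.

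Ptgs1, chr2:36230176-36230475: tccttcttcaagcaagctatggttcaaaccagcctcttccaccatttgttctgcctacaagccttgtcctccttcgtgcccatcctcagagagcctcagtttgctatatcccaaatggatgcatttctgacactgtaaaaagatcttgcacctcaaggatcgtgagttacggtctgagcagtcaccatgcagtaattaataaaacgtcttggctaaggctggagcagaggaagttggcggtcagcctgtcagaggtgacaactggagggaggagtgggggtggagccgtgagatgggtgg

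Ptgs2, chr1:150099781-150100080: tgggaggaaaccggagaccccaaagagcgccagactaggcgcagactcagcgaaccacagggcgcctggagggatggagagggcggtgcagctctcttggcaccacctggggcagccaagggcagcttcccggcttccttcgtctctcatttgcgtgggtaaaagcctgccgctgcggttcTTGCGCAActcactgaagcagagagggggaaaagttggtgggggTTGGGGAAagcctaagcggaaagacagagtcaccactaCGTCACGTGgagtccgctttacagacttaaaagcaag

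The Ptgs2 window held the C/EBP letters TTNNGNAA as TTGCGCAA at -69, which reads as a match on both strands, and as TTGGGGAA at -25. It also held TGACG, the core letters of the cyclic AMP response element, on the minus strand at 14, overlapping the E-box CACGTG at 17 (positions from the start site). Of 32841 promoters of the same length, 40.7% held the C/EBP letters, 20.8% TGACG and 7.15% this E-box. None of the 7 motifs, which also included AP-1 (TGANTCA), the full response element TGACGTCA, the TATA letters TATAAA and NF-kB, matched in the Ptgs1 window. The last 4 had no match in the Ptgs2 window either, and were present in 7.81%, 1.79%, 13.6% and 8.46% of promoters. A match describes letters and not binding, and a missing match covers this window alone.

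In GENCODE M21 (GRCm38) Ptgs1 spans chr2:36230426-36252272 and Ptgs2 chr1:150100031-150108227, both on the plus strand, and Ptger4 spans chr15:5206661-5244187 on the minus strand. All are protein coding. No exon of another gene overlaps those of Ptgs2. Exons of 5 of the 10 genes (Ptgs1, Ptger2, Ptger4, Alox5ap and Ltc4s) overlap a gene on the opposite strand, over at most 268 bases except for 1015 bases that Ptger4 shares with the pseudogene Gm15937. Gm15937 was counted at 0 to 8 reads per library. Ttc33, a protein coding gene that shares 82 bases with Ptger4, was counted at 42 to 197. Whether counting used strand is not given in the sources used here. Whether reads in those stretches were gained from such partners or lost as ambiguous is therefore not known.

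Between 2641229 and 7541144 reads were assigned to genes per library. Leukocyte markers (Ptprc, Cd52, Laptm5, Coro1a) summed to between 2129 and 5265 CPM (counts scaled to a common library total) in every library. After 3x4Gy they summed to 3616 to 5080 CPM against 2129 to 3327 CPM in 3x0Gy, with no overlap, and 2 of the 4 rose. Epithelial or tumour markers summed to 146 to 1621 CPM and fibroblast or matrix markers to 11.5 to 178 CPM, so the sorted cells still carried RNA of both kinds. RP23-81C12.3, a symbol whose product is not given in the sources used here, took 0.148% to 31.5% of the gene counts, and scaling by trimmed means (TMM) was applied to every CPM below. In bulk RNA, fewer cells of a type and less RNA per cell cannot be told apart. Sample codes differ between the days, so day and experiment cannot be told apart and levels were compared only within a day.

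Ptgs2 rose and Ptgs1 fell at day 5 after both regimens, and at day 13 only the lower Ptgs1 passed the test. The word called is used where edgeR's quasi-likelihood test gave an adjusted p under 0.05 (Benjamini-Hochberg, over all genes tested). With 3x4Gy, 3 of the 8 genes tested were called (Ptgs2 higher, Ptgs1 and Ptger4 lower), where 12.3% of all genes were (5.2% higher, 7.09% lower). With 1x20Gy at day 5, 2 of 8 were called (Ptgs2 higher, Ptgs1 lower), where 8.55% of all genes were (3.67% higher, 4.88% lower). At day 13, 2 of 7 were called (Ptgs1 and Ptger4, both lower), where 8.05% of all genes were (4.22% higher, 3.83% lower). Hpgd and Alox15 were too low to test on either day, and Ptges too low at day 13. The median log2 fold change of the genes tested was -0.65, -0.09 and -0.38 in these comparisons, against 0.00, 0.02 and 0.01 over all genes tested.

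Ptgs2 stood at 11.2, 7.15, 17.1 and 35.0 CPM in the 3x0Gy libraries. After 3x4Gy it ran from 47.0 to 85.1 CPM with a median of 55.8. All 6 irradiated libraries lay above all 4 mock libraries, although mock library 4 was well above the other mocks. The means were 60.8 ± 14.95 (SD, n = 6) and 17.6 ± 12.3 CPM (n = 4). On the log2 scale the gene rose by 1.73, with a standard error (SE) of 0.32 and an edgeR adjusted p of 0.00118. The call held without any single library, with adjusted p up to 0.00757.

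With the single dose the pattern at day 5 was similar in size. The 1x0Gy libraries held 29.1, 22.5, 15.9 and 26.3 CPM of Ptgs2. The 1x20Gy libraries ran from 36.4 to 81.7 CPM with a median of 64.6, again with no overlap. The means were 61.8 ± 16.8 (SD, n = 6) and 23.5 ± 5.72 CPM (n = 4). The log2 rise was 1.39 (SE 0.31, edgeR adjusted p = 0.00667). Leaving out any single library kept this call, with adjusted p up to 0.0378.

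At day 13 Ptgs2 overlapped between the groups. The 1x0Gy libraries held 32.2, 41.8, 18.4 and 21.0 CPM. The 1x20Gy libraries ran from 21.7 to 68.0 CPM with a median of 30.1, and library 2 held the top value. The log2 fold change was 0.30 (SE 0.29, 95% interval -0.28 to 0.88, edgeR adjusted p = 0.59), and without that library it was 0.04.

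Ptgs1 moved the other way. The 3x0Gy libraries held 48.1, 66.1, 34.3 and 57.2 CPM, and the 3x4Gy libraries ran from 15.3 to 39.9 CPM with a median of 30.4. The groups overlapped, because mock library 3 lay below the highest irradiated libraries. The means were 28.8 ± 9.75 (SD, n = 6) and 51.4 ± 13.6 CPM (n = 4). The fitted log2 difference was -0.83 (SE 0.27, edgeR adjusted p = 0.0494). This call lay at the threshold. It was lost without any 1 of 7 of the 10 libraries (3x4Gy libraries 1 to 4 and 3x0Gy libraries 1, 2 and 4), at adjusted p up to 0.132, and when only these groups entered the fit (adjusted p = 0.0668).

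After 1x20Gy the fall in Ptgs1 was larger than the spread on both days. At day 5 the 1x0Gy libraries held 56.8, 42.5, 60.7 and 76.8 CPM, and the 1x20Gy libraries ran from 13.1 to 37.6 CPM with a median of 23.7. The log2 fold change was -1.25 (SE 0.27, edgeR adjusted p = 0.00514), with no overlap and no single library that ended the call (adjusted p up to 0.0316). At day 13 the 1x0Gy libraries held 36.5, 41.8, 34.1 and 33.7 CPM, and the 1x20Gy libraries ran from 8.39 to 31.5 CPM with a median of 19.0. All 7 irradiated libraries lay below all 4 mocks there, with a log2 fold change of -1.04 (SE 0.27, edgeR adjusted p = 0.0277). The day 13 call was lost without 1x20Gy library 7 or without any of the 4 mocks, at adjusted p between 0.0506 and 0.0805.

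**Figure D1:**
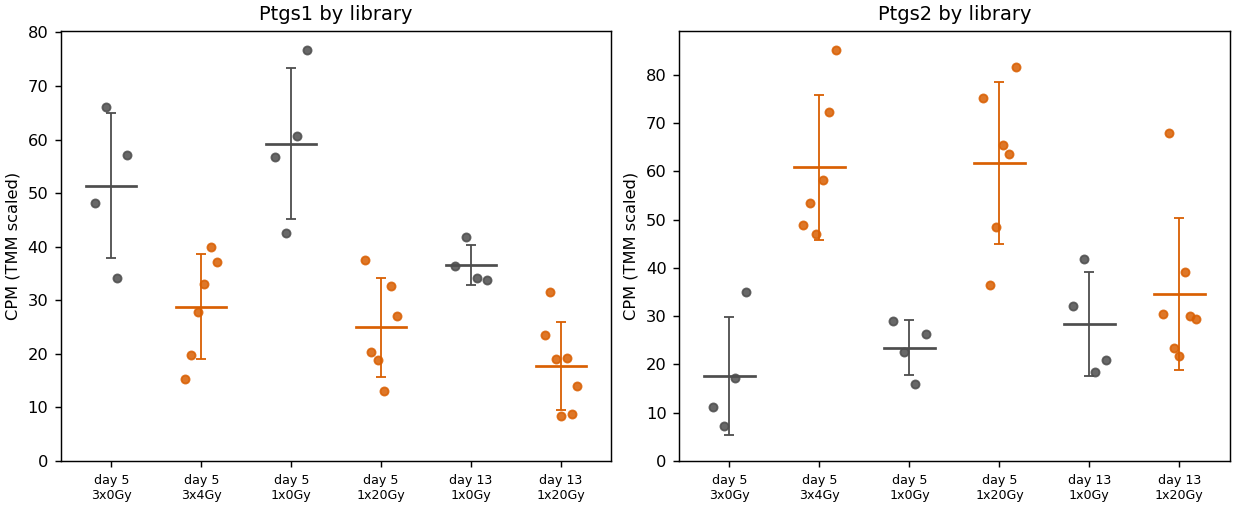
Ptgs1 (left) and Ptgs2 (right) in CPM after TMM scaling, for each library (dots) with the group mean (line) and SD (bars), mock in grey and irradiated in orange. Ptgs2 lies higher in every day 5 irradiated library than in its mocks, and Ptgs1 is lower after 1x20Gy on both days with no overlap.

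Counted per kilobase of exon, the balance between both cyclooxygenases turned in every irradiated group. Ptgs2 made up 58.9% to 73.1% of the summed Ptgs1 and Ptgs2 level after 3x4Gy (median 63.3%) and 8.41% to 34.2% in 3x0Gy (median 23.1%). It made up 60.2% to 80.97% after 1x20Gy at day 5 (median 65.8%) and 18.1% to 31.01% in 1x0Gy (median 26.4%). At day 13 the share was 51.0% to 74.5% after 1x20Gy (median 64.1%) and 31.4% to 45.9% in 1x0Gy (median 38.7%). Ptgs2 was thus the higher of the pair in 19 of 19 irradiated libraries and in 0 of 12 mock libraries. Which of the pair is higher depends on the exon lengths used (3884 bases for Ptgs1 and 4580 for Ptgs2). The annotation used for counting is not known, and the lowest irradiated library, at 51.0%, lay close to equal levels. The share was computed after both genes' changes were known and is given as a description with no test. At day 13 it rests on Ptgs1, the member of the pair whose change passed the test.

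**Figure D2:**
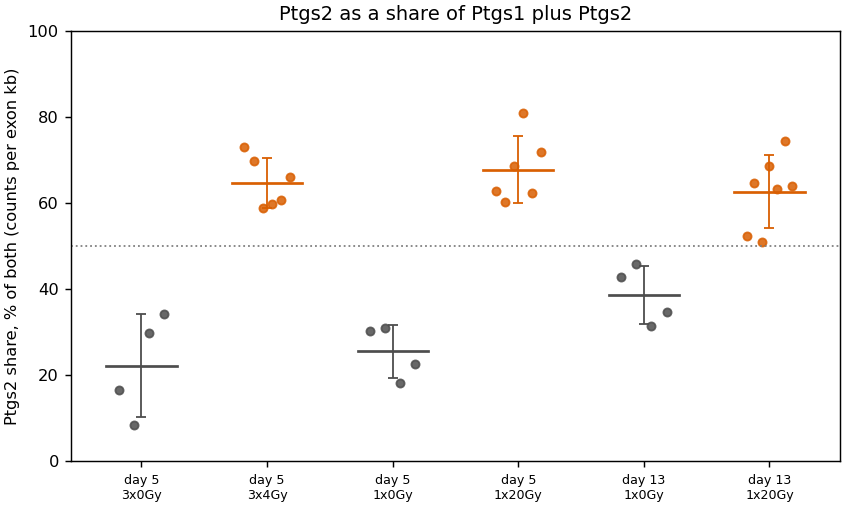
Share of Ptgs2 in the summed level of Ptgs1 and Ptgs2 (percent, counts per kilobase of exon) for each library (dots), with group mean (line) and SD (bars), mock in grey and irradiated in orange. Each irradiated library lies above the dotted line of equal levels and each mock library lies below it.

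The enzymes on either side of prostaglandin E2 were scarce. Ptges, a prostaglandin E synthase, was represented by 0 to 17 counts per library. Ptges2 and Ptges3 were counted among the other pathway genes below, so this does not describe the whole step. In CPM it was 3.83, 1.02, 2.40 and 2.64 in 3x0Gy and 0.436 to 2.95 (median 1.28) in 3x4Gy, a log2 fold change of -0.80 (SE 0.41, edgeR adjusted p = 0.205). The 1x20Gy value at day 5 was -0.15 (SE 0.41, 95% interval -0.95 to 0.65, edgeR adjusted p = 0.874). At day 13 Ptges counts were 0 to 8 after 1x20Gy and 7 to 14 in 1x0Gy. Tested without a filter on low counts its log2 fold change was -1.40 (SE 0.51) at an edgeR adjusted p of 0.121.

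Hpgd, which inactivates prostaglandin E2, gave 0 to 11 counts per library. At day 5 it summed to 14 counts over the 6 libraries of 3x4Gy and 16 over the 4 of 3x0Gy. It summed to 7 over the 6 of 1x20Gy and 13 over the 4 of 1x0Gy. At day 13 it summed to 35 over the 7 libraries of 1x20Gy and 12 over the 4 of 1x0Gy. Without the filter its edgeR adjusted p was 0.673, 0.55 and 0.472 for 3x4Gy, for 1x20Gy at day 5 and for 1x20Gy at day 13. At these counts neither enzyme allowed a statement on its direction.

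Of the prostaglandin E2 receptors, Ptger4 was abundant and lower after irradiation, while Ptger2 was scarce and showed no called change. Ptger4 stood at 159, 243, 169 and 129.9 CPM in 3x0Gy and ran from 89.0 to 148 CPM (median 128) in 3x4Gy. The lowest mock lay within the irradiated range. The log2 fold change was -0.51 (SE 0.16, edgeR adjusted p = 0.0404), and it was lost without any 1 of 7 of the 10 libraries. Without 3x0Gy library 2, the highest mock, it was -0.32 (edgeR adjusted p = 0.192).

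At day 5 after 1x20Gy, Ptger4 ran from 92.0 to 127 CPM (median 107) against 158, 158, 143 and 147 CPM in 1x0Gy. The groups did not overlap, but the log2 fold change of -0.50 (SE 0.16) missed the threshold at an edgeR adjusted p of 0.0568. It passed under 7 of the alternatives tried, for example at 0.0233 in DESeq2. At day 13 Ptger4 ran from 61.5 to 84.9 CPM (median 75.9) after 1x20Gy against 112, 99.8, 120.4 and 109 CPM in 1x0Gy. There the log2 fold change was -0.57 (SE 0.12, edgeR adjusted p = 0.00774), with no overlap and no single library that ended the call.

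Ptger2 ranged over 2.04 to 11.1 CPM across the 31 libraries. Its log2 fold changes were 0.04 (95% interval -0.67 to 0.75), 0.39 (-0.27 to 1.05) and 0.13 (-0.64 to 0.91) for 3x4Gy, 1x20Gy at day 5 and 1x20Gy at day 13. The edgeR adjusted p was 0.954, 0.539 and 0.877. The first and the last of these changed sign under some alternatives, so no direction can be given for them.

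In the leukotriene branch no gene was called after either regimen in the fit reported here. Alox5ap, Alox5 and Ltc4s were each called under at least 1 alternative. Alox5ap, the protein that presents arachidonic acid to Alox5, was the most abundant of the 10 genes per kilobase of exon in all 6 groups. It stood at 84.4, 187, 123 and 123 CPM in 3x0Gy and 93.5 to 166 CPM (median 140.1) in 3x4Gy, a log2 fold change of 0.08 (95% interval -0.28 to 0.45, edgeR adjusted p = 0.8). At day 5 it ran from 162 to 201 CPM (median 175) after 1x20Gy against 122, 120.0, 170.1 and 129.8 CPM in 1x0Gy. That is a log2 fold change of 0.39 (SE 0.19, edgeR adjusted p = 0.207), with 1 mock inside the irradiated range. It was called when only these groups entered the fit (edgeR adjusted p = 0.0468). At day 13 it ran from 41.0 to 64.0 CPM (median 57.1) against 62.2, 61.8, 81.3 and 76.9 CPM, a log2 fold change of -0.38 (SE 0.14, edgeR adjusted p = 0.122). With libraries scaled by their size alone, this became a call at -0.62 (edgeR adjusted p = 0.019).

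Alox5, the enzyme itself, was far lower than its partner protein. Its mean per kilobase of exon was between 0.525 and 1.63 CPM in the 6 groups, where Alox5ap reached 38.2 to 125 CPM. At day 13 Alox5 ran from 3.11 to 11.6 CPM (median 6.40) after 1x20Gy against 1.53, 3.51, 4.18 and 6.24 CPM in 1x0Gy. This log2 fold change of 0.77 (SE 0.36) had an edgeR adjusted p of 0.215. At day 5 it was -0.87 (SE 0.48, edgeR adjusted p = 0.24) for 3x4Gy and -0.02 (95% interval -0.93 to 0.89, edgeR adjusted p = 0.99) for 1x20Gy. With the replicate number as a block, the 3x4Gy value became a call at -1.44 (edgeR adjusted p = 0.0281).

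Ltc4s, the leukotriene C4 synthase, ran from 2.26 to 7.43 CPM (median 4.504) after 3x4Gy against 7.32, 11.9, 5.48 and 7.13 CPM in 3x0Gy. The log2 fold change of -0.80 (SE 0.30) missed the threshold at an edgeR adjusted p of 0.0816, and reached 0.0281 without 3x4Gy library 3. With 1x20Gy it was -0.22 (SE 0.29, edgeR adjusted p = 0.722) at day 5 and -0.66 (SE 0.35, edgeR adjusted p = 0.274) at day 13. Alox15 gave 0 to 19 counts per library. Its group sums at day 5 were 36 over the 6 libraries of 3x4Gy and 16 over the 4 of 3x0Gy. They were 25 over the 6 of 1x20Gy and 12 over the 4 of 1x0Gy. Of these counts, 19 of the 36 came from 3x4Gy library 6 and 13 of the 25 from 1x20Gy library 5. At day 13 the group sums were 31 over the 7 libraries of 1x20Gy and 12 over the 4 of 1x0Gy. Tested without the filter, the edgeR adjusted p of Alox15 was 0.799, 0.623 and 0.56.

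**Figure D3:**
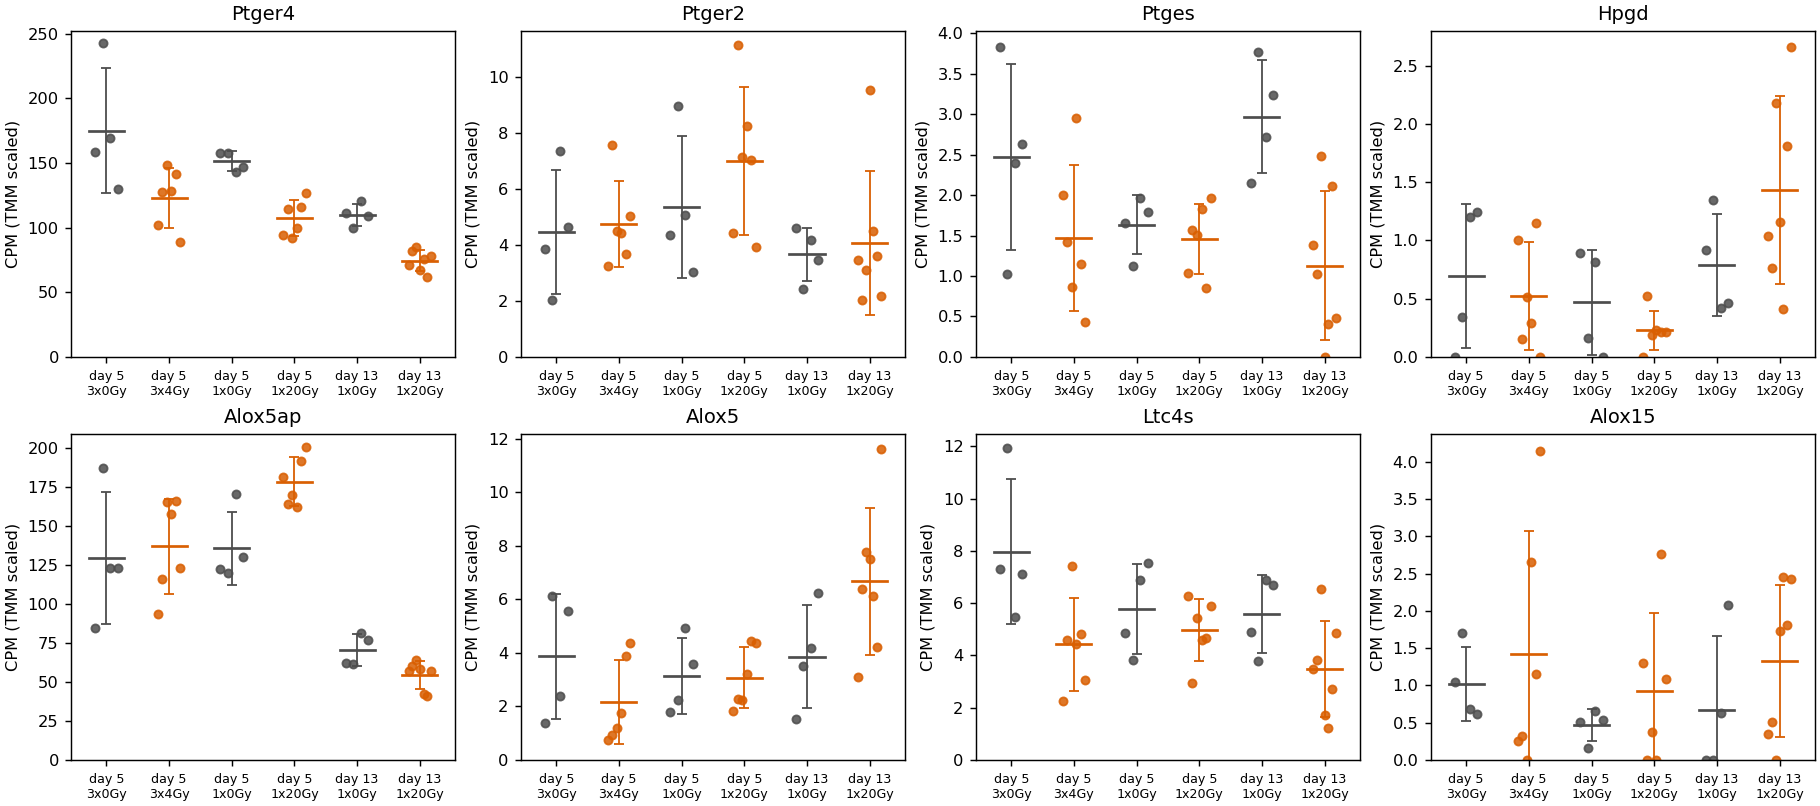
The other 8 genes in CPM after TMM scaling for each library (dots), with group mean (line) and SD (bars, cut at 0), mock in grey and irradiated in orange, each panel on its own scale. Ptger4 lies lower after 1x20Gy on both days with no overlap, and Hpgd, Ptges and Alox15 stay below 5 CPM in each library.

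Ranked by mean CPM per kilobase of exon, Alox5ap came first and Ptger4 second in all 6 groups. The next place was held by Ptgs1 in the 3 mock groups and by Ptgs2 in the 3 irradiated groups. In 3x0Gy the order ran Alox5ap 91.1 ± 30.0, Ptger4 26.3 ± 7.24, Ptgs1 13.2 ± 3.50, Ltc4s 7.85 ± 2.73 and Ptgs2 3.85 ± 2.69 (SD, n = 4). In 3x4Gy it ran Alox5ap 96.3 ± 21.3, Ptger4 18.5 ± 3.46, Ptgs2 13.3 ± 3.26, Ptgs1 7.42 ± 2.51 and Ltc4s 4.37 ± 1.75 (SD, n = 6). The remaining 5 genes had group means of at most 1.63 on this scale. Their order differed between groups within their spread.

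Whether the regimens or the days differed was tested directly. No gene of the 10 was called for a difference between the 3x4Gy and 1x20Gy responses at day 5, where 0% of all genes were (714 of all genes at an unadjusted p below 0.05 in edgeR, 1 call in DESeq2, 0 in limma), and 0 of the 8 tested had an unadjusted p below 0.05 in edgeR, DESeq2 or limma. For Ptgs2 the difference of the log2 fold changes was 0.33 (95% interval -0.51 to 1.18) and for Ptgs1 0.42 (-0.35 to 1.18). For Ptger4 it was -0.01 (-0.46 to 0.44). These intervals leave room for differences of up to about 1 log2 unit in the cyclooxygenases.

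When the effect of 1x20Gy at day 13 was set against its effect at day 5, 0 of 9 genes were called, where 0.423% of all genes were (0.207% higher, 0.216% lower). At an unadjusted p below 0.05 there were 2 in edgeR, 2 in DESeq2 and 3 in limma. In edgeR they were Alox5ap, with a difference of -0.75 (SE 0.25, adjusted p = 0.151), and Ptgs2, with -1.07 (SE 0.44, adjusted p = 0.283). The Ptgs2 value says that its response was smaller at day 13 by an amount between 0.20 and 1.93 log2 units in the interval, but it did not hold after adjustment. Ptgs1 differed by 0.23 (-0.57 to 1.04) and Ptger4 by -0.05 (-0.45 to 0.35).

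Between the mock groups at day 5 (3x0Gy against 1x0Gy) 0 of 8 genes were called, as were 0% of all genes (667 at an unadjusted p below 0.05 in edgeR, 2 calls in DESeq2, 0 in limma), and none had an unadjusted p below 0.05 in edgeR, DESeq2 or limma. The log2 difference was -0.36 (SE 0.34) for Ptgs2, -0.21 (SE 0.30) for Ptgs1 and 0.21 (SE 0.18) for Ptger4.

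**Figure D4:**
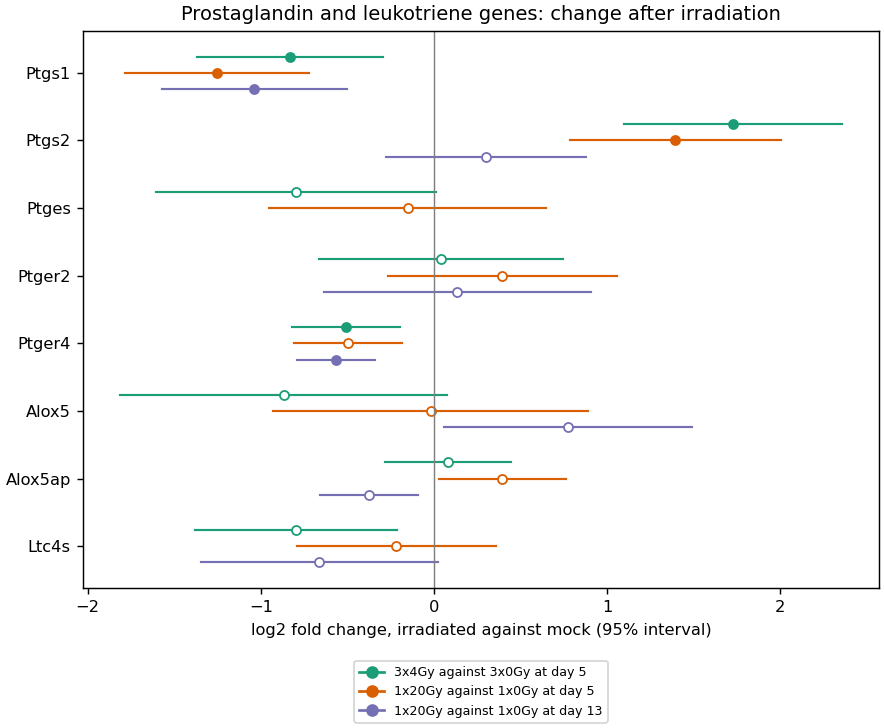
Log2 fold change of each gene tested in the 3 comparisons of an irradiated group with its own mock (points, filled where called) with 95% intervals (lines). Ptgs2 lies right of 0 and Ptgs1 left of 0 at day 5 with both regimens, and at day 13 the filled points are Ptgs1 and Ptger4.

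Beyond the 10 genes, a list of 48 other genes of the pathway was measured, of which 27 were tested at day 5 and 25 at day 13. With 3x4Gy 2 rose and 3 fell, with 1x20Gy at day 5 2 rose and 1 fell, and at day 13 2 rose and 1 fell, against the shares of all genes given above. The list's median log2 fold change was 0.15, 0.10 and -0.14. By class at day 5 after 3x4Gy, 0 of 7 phospholipases, 0 of 3 leukotriene enzymes and 0 of 3 leukotriene receptors were called. Of 7 prostanoid receptors other than Ptger2 and Ptger4, only Ptgir was high enough to test at day 5 and none at day 13, and 0 of 5 other lipoxygenases were tested on either day.

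Among the prostaglandin transporters, Slco3a1, an organic anion transporter known to carry prostaglandins, rose in all 3 comparisons. It ran from 69.6 to 94.9 CPM (median 74.6) after 3x4Gy against 26.2 to 44.3 CPM in 3x0Gy, a log2 fold change of 1.02 (SE 0.16, edgeR adjusted p = 0.000242). With 1x20Gy it ran from 63.9 to 80.4 CPM against 30.1 to 50.01 CPM at day 5 (0.91, SE 0.16, edgeR adjusted p = 0.000931). At day 13 it ran from 62.1 to 73.8 CPM against 37.4 to 50.1 CPM (0.64, SE 0.12, edgeR adjusted p = 0.00377). The groups did not overlap in any of these. The day 13 call ended when libraries were scaled by their size alone (0.42, edgeR adjusted p = 0.0528) and with neutrophil markers as a covariate (0.54, edgeR adjusted p = 0.372). With epithelial and fibroblast markers as a covariate none of the other pathway genes was called in any of the 3 comparisons, and Slco3a1 had 0.85, 0.78 and 0.58 (edgeR adjusted p = 0.105, 0.0666 and 0.193).

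Slco2a1, the transporter that takes prostaglandins up for breakdown, fell at day 5 from a low level. It gave 41 counts over the 6 libraries of 3x4Gy and 65 over the 4 of 3x0Gy (log2 fold change -1.38, SE 0.45, edgeR adjusted p = 0.0477), and this call was lost without any 1 of 9 of the 10 libraries. It gave 12 counts over the 6 libraries of 1x20Gy and 54 over the 4 of 1x0Gy (-2.30, SE 0.53, edgeR adjusted p = 0.0087). With the epithelial and fibroblast covariate these became 0.065 (edgeR adjusted p = 0.961) and -1.16 (edgeR adjusted p = 0.382). The prostaglandin reductases Cbr1 (-1.15, SE 0.26, edgeR adjusted p = 0.00578) and Ptgr2 (-0.42, SE 0.13, edgeR adjusted p = 0.0323) fell after 3x4Gy alone among the 3 comparisons. The Ptgr2 call was lost without any 1 of 6 of the 10 libraries (edgeR adjusted p up to 0.0748), with the replicate number as a block (0.0596), without the low count filter (0.13) and with only these groups in the fit (0.104). No test showed that this differed between the regimens.

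Of the receptors for lipid mediators, Fpr2, which binds lipoxins and formylated peptides, rose at day 5. It ran from 10.4 to 31.6 CPM after 3x4Gy against 4.81 to 7.50 CPM in 3x0Gy (log2 fold change 1.81, SE 0.41, edgeR adjusted p = 0.00536). After 1x20Gy it ran from 14.5 to 41.4 CPM against 3.45 to 12.9 CPM (1.62, SE 0.38, edgeR adjusted p = 0.0101). With the epithelial and fibroblast covariate both calls ended, at 0.53 (edgeR adjusted p = 0.578) and 0.58 (edgeR adjusted p = 0.524), and with the mast cell covariate the 1x20Gy call ended at 1.12 (edgeR adjusted p = 0.209). At day 13 the cysteinyl leukotriene receptor Cysltr2 rose (0.95, SE 0.26, edgeR adjusted p = 0.0338) and Cmklr1, a receptor for chemerin, fell (-0.48, SE 0.12, edgeR adjusted p = 0.0226). Leaving out any 1 of 5 libraries ended the Cysltr2 call (adjusted p up to 0.125), and leaving out 1x0Gy library 2 or 3 ended that of Cmklr1 (up to 0.0887). Scaling by library size alone also ended the Cysltr2 call (0.73, edgeR adjusted p = 0.0725).

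Some central enzymes and receptors had no called change in the fit reported here. Log2 fold changes for 3x4Gy, 1x20Gy at day 5 and 1x20Gy at day 13 were 0.46, -0.19 and -0.24 for Pla2g4a, the phospholipase that releases arachidonic acid. They were -0.18, -0.75 and -0.63 for Hpgds, the prostaglandin D synthase of blood cells, and 0.20, 0.08 and -0.44 for the thromboxane synthase Tbxas1. Lta4h, which makes leukotriene B4, had -0.23, 0.49 and 0.42, and its receptor Ltb4r1 had 1.27, 0.82 and 0.41. The cysteinyl leukotriene receptor Cysltr1 had 0.27, -0.64 and -0.50. The lowest edgeR adjusted p of these 18 values was 0.0649 (Ltb4r1, 3x4Gy). Some of these were called under alternatives. Hpgds was called lower under 5 alternatives at each day after 1x20Gy, among them the replicate block (edgeR adjusted p = 0.0351 at day 5 and 0.00858 at day 13). Cysltr1 was called lower under 6 at day 5, with DESeq2 at an adjusted p of 0.0435, and Ltb4r1 was called higher for 3x4Gy in DESeq2 (adjusted p = 0.0285).

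**Figure D5:**
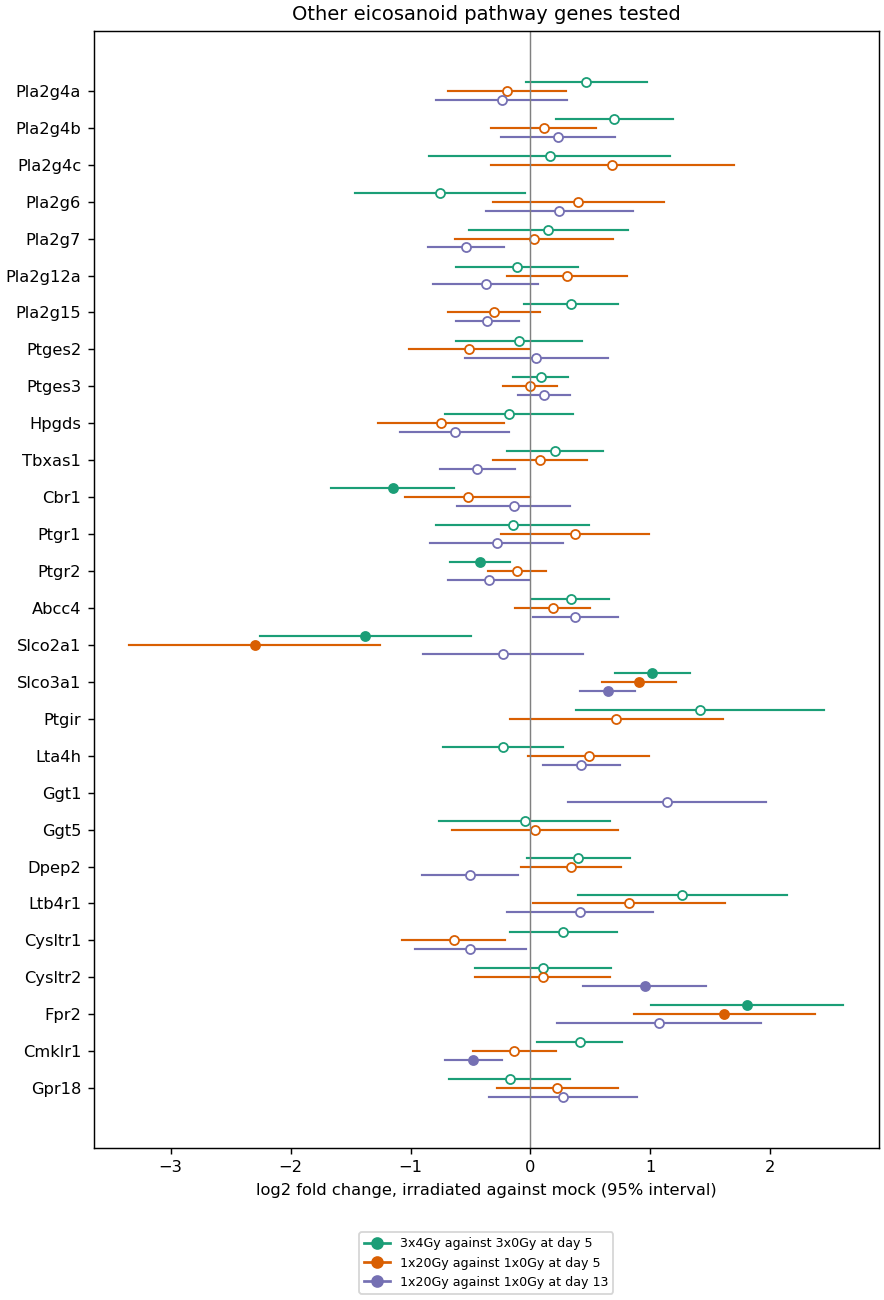
Log2 fold change of the other pathway genes tested in the 3 comparisons of an irradiated group with its own mock (points, filled where called) with 95% intervals (lines), ordered by class from phospholipases to lipid mediator receptors. Slco3a1 is filled and right of 0 in each comparison, and Fpr2 and Slco2a1 are filled at day 5 on opposite sides.

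A list of 12 cytokines and transcription factors known to induce Ptgs2 was read beside it. With 3x4Gy 4 of 12 rose and 2 fell, with 1x20Gy at day 5 3 rose and 2 fell, and at day 13 2 of 11 rose and 3 fell, where 12.3%, 8.55% and 8.05% of all genes were called. The NF-kB subunit Relb rose in each (log2 fold changes 0.72, 0.58 and 0.57, edgeR adjusted p = 0.00264, 0.0153 and 0.0103), as did Creb1, the factor of the cyclic AMP response element (0.44, 0.46 and 0.53, edgeR adjusted p = 0.0206, 0.0183 and 0.0112). Nfkb1 rose at day 5 (0.53 and 0.50, edgeR adjusted p = 0.026 and 0.0402). Its call was lost in 8 of 23 alternatives for 3x4Gy and 16 of 23 for 1x20Gy, single libraries left out among them. With a library left out its edgeR adjusted p reached 0.0872 and 0.147. Single libraries left out also ended the Creb1 call in each comparison (edgeR adjusted p up to 0.0809, 0.0821 and 0.0573). The same held for Relb after 1x20Gy at day 5 and day 13 (up to 0.0623 and 0.0561). Hif1a rose after 3x4Gy (0.97, edgeR adjusted p = 0.00276). When libraries were scaled by their size alone, Creb1 lost its call in all 3 comparisons (edgeR adjusted p = 0.113, 0.129 and 0.131), Nfkb1 at day 5 with both regimens (0.119 and 0.194) and Relb after 1x20Gy on both days (0.108 and 0.0767). With the epithelial and fibroblast covariate each call in this list ended except the lower Cebpd after 3x4Gy.

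Cebpd, a C/EBP factor, fell in each comparison (-2.39, -1.48 and -1.53, edgeR adjusted p = 1.46e-06, 0.000445 and 0.004), and so did the early growth response factor Egr1 (-1.86, -0.91 and -1.01, edgeR adjusted p = 1.82e-05, 0.0137 and 0.000908). Cebpd ran from 10.04 to 23.8 CPM after 3x4Gy against 63.7 to 106 CPM in 3x0Gy. Of the cytokines, Il1a fell at day 13 (-1.77, edgeR adjusted p = 0.0091). Il1b, at a group median of 1794 to 3760 CPM, was not called in any comparison (-0.14, 0.24 and -0.17), and neither was Tnf.

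Markers of other cell types moved with these results. After 3x4Gy 5 of 5 fibroblast or matrix markers tested and 2 of 6 epithelial or tumour markers fell. The fibroblast markers summed to 15.4 to 45.9 CPM against 67.5 to 178 CPM in 3x0Gy, with no overlap. After 1x20Gy 1 of 5 and 4 of 6 fell at day 5, and 3 of 5 and 1 of 5 at day 13. With the mean of both lists added to the fit as a covariate, 0 of the 10 genes were called in any of the 3 comparisons. Ptgs2 then had a log2 fold change of 1.40 (edgeR adjusted p = 0.193) for 3x4Gy and 1.16 (0.185) for 1x20Gy at day 5. Ptgs1 had -1.18 (0.233), -1.52 (0.0629) and -0.84 (0.502) in the 3 comparisons, and Ptger4 had -0.69 (0.193) for 3x4Gy and -0.63 (0.185) at day 13. With the same covariate, 69, 89 and 43 of all genes tested were called. The part of these cells in the changes was not tested.

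Among the leukocytes known to make these lipids, macrophage markers were called in 0 of 8 cases at day 5 with both regimens, and 3 of 8 fell at day 13 (summed 5438 to 7507 CPM against 7090 to 9530 CPM). Neutrophil markers rose in 0 of 6 after 3x4Gy, 2 of 6 after 1x20Gy at day 5 (35.3 to 545 CPM against 23.5 to 84.5 CPM) and 3 of 5 at day 13 (95.5 to 241 CPM against 39.6 to 90.5 CPM). Ly6g of that list was at 0 counts in every library. With the neutrophil markers as a covariate, Ptgs2 had a log2 fold change of 1.68 (edgeR adjusted p = 0.00109) for 3x4Gy and 1.21 (0.02) for 1x20Gy at day 5. The same covariate ended the day 13 calls of Ptgs1 (-1.11, 0.485) and Ptger4 (-0.75, 0.197), which had -1.04 and -0.57 without it. With it, 46 of all genes were called higher and 15 lower at day 13, where 467 and 424 were without it.

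Mast cell markers rose in 3 of 6 after 1x20Gy at day 5 (94.98 to 148 CPM against 34.7 to 62.5 CPM, no overlap) and in 0 of 6 in the other comparisons. With them as a covariate, Ptgs2 had 1.11 (edgeR adjusted p = 0.123) for 1x20Gy at day 5 and Ptgs1 had -2.0 (0.00802). Monocyte markers, of which 4 were tested, gave 1 higher and 1 lower after 3x4Gy and 1 higher after 1x20Gy on each day. Their sums were higher in median: 735 to 1403 CPM (median 1128) against 430 to 824 CPM (median 533) for 3x4Gy, and 550 to 1700 CPM (median 1023) against 418 to 909 CPM (median 534) for 1x20Gy at day 5. At day 13 they were 432 to 878 CPM (median 706) against 374 to 483 CPM (median 449.5). These groups overlapped in each comparison, and no fit with monocyte markers was run. Platelets are a known site of Ptgs1: 1 of 2 platelet markers tested fell after 3x4Gy (7.77 to 20.9 CPM against 28.9 to 150 CPM), 0 of 2 in the other comparisons, and Gp9 was at 0 counts in all libraries. Eosinophils are a known site of Alox15, though not the only one. Their markers were called in 0 of 2 at day 5 with either regimen and 0 of 1 at day 13, and Epx was at 0 counts in 5 of 6 groups. The part of these cells was not tested beyond the covariates given.

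Genes that varied between libraries like each cyclooxygenase were listed by Pearson's r of log2 CPM, as deviations from the group means over the 20 day 5 libraries, among 8895 genes. They are a description, and the values share library and depth. Ptgs2 was most like Pde4b, a cyclic AMP phosphodiesterase (r = 0.924, and 0.493 over the 11 day 13 libraries), Usp2 (0.866 and 0.189), Trio (0.847 and 0.785), Ly86 (0.838 and 0.518) and Creb5 (0.833 and 0.77). Ptgs1 was most like Cd63 (0.948 and 0.409), Hebp1 (0.919 and 0.144), Acp5 (0.917 and 0.277), Ctsz (0.914 and 0.513) and Hexa (0.913 and 0.325). Cd63, Acp5, Ctsz and Hexa encode proteins of lysosomes or their membranes. Ptger4 was most like Sipa1 (0.932 and 0.46) and Alox5ap most like Setd3 (0.918 and 0.0723). Ptgs1 and Ptgs2 themselves had an r of 0.221 at day 5 and 0.632 at day 13, so within groups they did not run against each other. In the same measure Alox5ap went with Ltc4s at 0.67 and 0.692.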

How the data were processed

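The deposited values are whole-number read counts per gene symbol, 1 table per library. Per the submitters' processing notes the authors used HISAT2 2.0.4 and HTSeq 0.9.1 with GRCm38/mm10, after bcl2fastq 2.20.0.422 and cutadapt 1.5. The annotation and strand setting are not given in the sources used here. Reads outside genes (5.65% to 32.0%) were left out. The 10 genes, gene lists, tests and alternatives were chosen with earlier results of these data known. Counts were fitted in R 4.3.3 with edgeR 4.0.16 (TMM, filterByExpr with minimum count 10 and minimum total 15, quasi-likelihood test, two-sided, Benjamini-Hochberg over all genes tested), with the 20 day 5 libraries in 1 fit, the 11 day 13 libraries in another and all 31 for the difference between days. The SE is the absolute log2 fold change over the square root of F, and 95% intervals are 1.96 SE either side. DESeq2 1.42.0 and limma 3.58.1 served as alternatives. Fits were tested on simulated data. Exon lengths came from GENCODE M21. Log2 CPM for likeness used a prior count of 2, a mean of at least 5 CPM and the 5 highest r. Named pathway genes were those called in at least 1 comparison and 6 named whatever their result.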

Additional observations from a re-analysis of the deposited data

How the results depend on the processing

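Besides leaving out each library, 13 alternatives were tried; leaving RP23-81C12.3 out of the counts was chosen after seeing the data. For the 10 genes, the number called with 3x4Gy (3) was 1 at an adjusted p below 0.01, 0 with the epithelial and fibroblast covariate, 1 with only the groups compared, and 1 to 3 leaving out a library. The number with 1x20Gy at day 5 (2) was 0 with that covariate, 1 with the mast cell covariate, 4 with only the groups compared, and 2 to 3 leaving out a library. At day 13 (2) it was 1 at an adjusted p below 0.01, 0 with either the epithelial and fibroblast or the neutrophil covariate, and 1 to 2 leaving out a library. It was 0 throughout for the differences between regimens, days and mocks.

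For the other pathway genes, the count with 3x4Gy (5) was 3 at an adjusted p below 0.01, without the low count filter, with the replicate block and with only the groups compared, 0 with the epithelial and fibroblast covariate, and 3 to 7 leaving out a library. With 1x20Gy at day 5 (3) it was 5 with library size scaling, 5 without the filter, 6 with the neutrophil covariate, 1 with the mast cell covariate, 0 with the epithelial and fibroblast covariate, and 3 to 5 leaving out a library. At day 13 (3) it was 1 at an adjusted p below 0.01, 7 with library size scaling (0 higher and 7 lower, where 2 were higher and 1 lower), 5 with the replicate block, 0 with the epithelial and fibroblast or neutrophil covariate, and 1 to 7 leaving out a library.

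Values that changed sign, of which Slco2a1 alone was called, were as follows. For 3x4Gy, Ptger2 was -0.032 with upper quartile scaling, -0.060 with library size, -0.28 with the epithelial and fibroblast covariate, and -0.17 to 0.40 leaving out a library. Alox5ap was -0.0058 with library size, -0.095 with that covariate and -0.074 to 0.30 leaving out a library. With the same covariate Tbxas1 was -0.16 and Slco2a1 0.065. For 1x20Gy at day 5, Ptges was 0.049 with the replicate block, 0.11 with the epithelial and fibroblast covariate and 0.61 with the mast cell covariate. Alox5 was 0.055 in limma voom and -0.22 to 0.29 leaving out a library. Alox5ap was -0.058 and Lta4h -0.0061 with the mast cell covariate, and Ltc4s 0.073 with the epithelial and fibroblast covariate. Tbxas1 was -0.049 with library size, -0.024 with the replicate block, -0.22, -0.34 and -0.46 with the epithelial and fibroblast, neutrophil and mast cell covariates, and -0.012 to 0.23 leaving out a library. At day 13, Ptger2 was -0.12 with library size, -0.026 in limma voom and -0.24 to 0.26 leaving out a library, and Alox5 was -0.60 with the neutrophil covariate. The cause was not tested.

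Whether title numbers pair the libraries was not settled. Correlations of same-numbered libraries with their mocks ran from -0.26 to 0.40. The mean correlation with other numbers was 0.060 beside the lowest of these (1x20Gy at day 5, number 4). Beside the highest (3x4Gy, number 1) it was -0.13. With the number as a replicate block, 3, 2 and 2 of the 10 genes were called in the 3 comparisons with mock and 0 in the others. With 3x4Gy, Ptger4 lost its call (edgeR adjusted p = 0.0572) and Alox5 gained one (-1.44, 0.0281). Scaling by library size moved the median of all genes to -0.10, -0.11 and -0.23 and the calls to 325 higher and 1084 lower, 210 and 947, and 222 and 1311 (upper quartile: 450 and 1110, 317 and 745, 384 and 512). Calls over all genes (1477 with 3x4Gy, 1028 with 1x20Gy at day 5, 891 at day 13) were 224 higher and 441 lower, 143 and 282, and 114 and 176 at an adjusted p below 0.01. They were 43 and 26, 48 and 41, and 31 and 12 with the epithelial and fibroblast covariate. They were 233 and 469 for 3x4Gy with only the groups compared, 746 and 836 with the neutrophil and 204 and 184 with the mast cell covariate for 1x20Gy at day 5, and 46 and 15 with the neutrophil covariate at day 13. Without 1x0Gy library 3 or 4 the day 5 calls were 229 and 353 or 179 and 377, and without 1x0Gy library 2 or 3 those of day 13 were 252 and 336 or 132 and 174. The difference between days (25 and 26) was 134 and 94 in DESeq2, 1 and 2 in limma voom and 3 and 5 with the replicate block. Depth limits Hpgd, Alox15, Ptges and Slco2a1, which rest on a few counts per library.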

Other observations

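Genes of like pattern between day 5 libraries were also listed for Alox5 and Ltc4s (Pearson's r of deviations from group means, 20 libraries, a description). Alox5 was most like Fam21 (r = 0.852), Commd10 (0.836) and the monocyte chemokines Ccl2 (0.828) and Ccl7 (0.821). Over the 11 day 13 libraries these had an r of -0.103, -0.252, 0.323 and 0.371, so the first of these links did not recur there. Ltc4s was most like Tmem50b (0.898), Pxdc1 (0.89) and the cytokine gene Il10 (0.882), with day 13 values of 0.598, 0.461 and 0.109. Regulatory T cell markers were higher in 4 of 5 after 3x4Gy, 4 of 5 after 1x20Gy at day 5 and 2 of 5 at day 13 (edgeR), where 5.2%, 3.67% and 4.22% of all genes were called higher. T cells are known to respond to prostaglandin E2, and no relation to the pathway genes was tested.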
